A study of Homo sapiens with 62 samples.

Results

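The genes described here encode 10 enzymes of glucose breakdown, HK2, GPI, ALDOA, TPI1, GAPDH, PGK1, PGAM1, ENO1, LDHA and LDHB. They were chosen by symbol among the 55040 annotated gene rows of each library, and each symbol had a single row. The libraries came from GM12878, a human B-lymphoblastoid cell line immortalised by Epstein-Barr virus, and were made by SMART-seq, which copies and amplifies polyadenylated RNA from very small inputs. Pools of 10 picked cells were divided into parts, and each part was carried through as if it were a single cell, to measure how much the procedure itself varies. Of the 62 samples, 20 were used here, in 2 sets of 10: the numbered splits, whose titles count from 1 to 10, and the unnumbered splits, known by library numbers 232, 233 and 246 to 253. All 20 share the cell line, no treatment is given for either set, and whether each set came from a single pool is not stated. The splits of a set may therefore be technical replicates, and every p below measures only the spread between these splits. The titles of 9 of the 10 unnumbered splits, all but 247, say that a later record replaces them, and no numbered title does. The other 42 samples were not analysed here.

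Glycolysis turns glucose into pyruvate in the cytosol. Hexokinase traps glucose as its phosphate, an isomerase, a kinase and aldolase lead to triose phosphates, and a second series of enzymes from GAPDH to pyruvate kinase yields ATP and NADH. Lactate dehydrogenase, built from LDHA and LDHB subunits, then interconverts pyruvate and lactate. Several of these genes are known targets of hypoxia-inducible factors and of MYC, proliferating B cells depend on the pathway, and GAPDH and PGK1 are widely used as reference genes for transcript levels.

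The start-site sequences of 5 members are shown with those of ALDOC and PKM. ALDOA, GAPDH, ALDOC and PKM passed the test between the sets, ENO1 passed it under other scalings, and LDHA and LDHB encode the subunits of a shared enzyme. They are the 250 bases before a RefSeq start site in GRCh38.p14, printed 5′ to 3′ on the gene's strand, and that build is not the source of any other coordinate below. Capitals mark ACGTG, the core letters of the hypoxia response element, or its reverse complement CACGT. Where CACGTG stands, both strands hold a match and both were counted.

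ALDOA, chr16:30065510-30065759 (+ strand): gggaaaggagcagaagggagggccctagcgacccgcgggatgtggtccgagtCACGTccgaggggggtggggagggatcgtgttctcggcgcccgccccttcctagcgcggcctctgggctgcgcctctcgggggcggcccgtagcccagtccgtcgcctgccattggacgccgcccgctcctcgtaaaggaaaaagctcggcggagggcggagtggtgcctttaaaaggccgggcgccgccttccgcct
GAPDH, chr12:6535014-6535263 (+ strand): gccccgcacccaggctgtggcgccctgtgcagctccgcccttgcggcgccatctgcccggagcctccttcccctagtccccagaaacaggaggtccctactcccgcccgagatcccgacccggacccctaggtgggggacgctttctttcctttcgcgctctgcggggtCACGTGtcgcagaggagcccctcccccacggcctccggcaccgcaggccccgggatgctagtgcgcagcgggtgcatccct
ENO1, chr1:8878687-8878936 (- strand): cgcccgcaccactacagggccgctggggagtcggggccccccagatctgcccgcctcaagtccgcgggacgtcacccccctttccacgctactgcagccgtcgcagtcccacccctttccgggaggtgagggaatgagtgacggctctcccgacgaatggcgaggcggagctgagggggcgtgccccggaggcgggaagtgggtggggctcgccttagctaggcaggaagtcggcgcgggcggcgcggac
LDHA, chr11:18394313-18394562 (+ strand): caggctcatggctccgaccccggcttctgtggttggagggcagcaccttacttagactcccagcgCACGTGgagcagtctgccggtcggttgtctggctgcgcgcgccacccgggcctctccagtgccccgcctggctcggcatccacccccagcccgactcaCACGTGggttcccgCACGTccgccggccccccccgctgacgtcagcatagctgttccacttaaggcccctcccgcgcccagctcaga
LDHB, chr12:21657843-21658092 (- strand): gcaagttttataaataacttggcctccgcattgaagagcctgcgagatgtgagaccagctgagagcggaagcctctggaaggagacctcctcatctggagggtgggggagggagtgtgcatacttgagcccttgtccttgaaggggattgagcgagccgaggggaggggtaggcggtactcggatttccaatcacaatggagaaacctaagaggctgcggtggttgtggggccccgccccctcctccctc
ALDOC, chr17:28576896-28577145 (- strand): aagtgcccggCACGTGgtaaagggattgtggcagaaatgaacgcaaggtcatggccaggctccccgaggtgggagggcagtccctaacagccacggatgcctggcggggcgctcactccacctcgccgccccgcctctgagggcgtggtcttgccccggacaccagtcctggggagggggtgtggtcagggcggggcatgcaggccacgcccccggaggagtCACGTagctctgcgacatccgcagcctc
PKM, chr15:72231191-72231440 (- strand): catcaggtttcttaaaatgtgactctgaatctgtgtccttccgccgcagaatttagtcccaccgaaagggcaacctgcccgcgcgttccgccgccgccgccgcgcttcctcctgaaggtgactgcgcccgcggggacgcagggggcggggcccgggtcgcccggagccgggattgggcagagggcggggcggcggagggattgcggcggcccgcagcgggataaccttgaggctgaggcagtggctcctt

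For ALDOA, the table holds 3 start sites and the last of them is shown, and for LDHA the first of the sites listed is shown. Over all members there were 15 such windows, and 10 of them held ACGTG on either strand, which covered 7 of the 10 genes. Of all 35116 promoters of this length 18.5% held it. PGAM1, ENO1 and LDHB had no match in this window. LDHA had 5 matches in the window shown and 0 in its other window, and ALDOA had 1 in the window shown and 1 and 2 in the others. Among the rest, ALDOC had 3, GAPDH 2 and PKM 0. The GC box GGGCGG, in either direction, was found in 11 of the 15 windows and in 42.6% of all promoters. Whether a window lies before the main start site of its gene, GAPDH and PGAM1 included, was not checked. These matches are letters in a window and say nothing about binding.

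The libraries differed in depth and in composition. Depth, inferred from the confidence bounds of 10 mitochondrial genes, was 11.8 to 20.6 megafragments (M) in the numbered splits. Of the unnumbered splits, 8 had 23.3 to 38.7 M, while split 252 had 7.79 M and split 247 only 0.128 M. All values are FPKM, fragments per kilobase of transcript and per megafragment mapped, so levels of different genes can be set beside each other. Of the B-lymphoid markers, 8 of 8 reached 1 FPKM in at least 1 library, and their summed level was 7586 to 12989 FPKM in numbered and 3855 to 6368 FPKM in unnumbered splits. Of the markers of other cell types, CD3D, CD14, S100A8, HBB, HBA1, HBA2, KRT18 and COL1A2 were listed at 0 in all 20 libraries. No erythroid marker of 5 reached 1 FPKM anywhere. Of 5 T-cell markers 2 did, CD2 in 6 numbered and 1 unnumbered splits and CD3E in 3 numbered splits. Their sums were 0 to 53.4 FPKM in numbered and 0 to 5.61 FPKM in unnumbered splits. Of 5 myeloid markers, CSF1R alone did, in 10 numbered and 8 unnumbered splits, and the sums were 1.46 to 53.8 FPKM in numbered and 0.905 to 1.65 FPKM in unnumbered splits. Epithelial markers reached it for 3 of 4 genes, CDH1 in 6 numbered and 1 unnumbered splits and KRT8 and EPCAM in 1 numbered split each. Their sums were 0 to 139 FPKM in numbered and 0 to 77.0 FPKM in unnumbered splits. Fibroblast markers reached it for 1 of 4, COL1A1, in 1 split of each set, with sums of up to 1.19 FPKM in numbered and 2.61 FPKM in unnumbered splits. Mitochondrial genes took up 4.86% of the FPKM on average in numbered splits (3.37 to 6.32%), against 7.35% in unnumbered ones (6.18 to 8.17%). Summed FPKM averaged 1471330 in numbered and 1215430 in unnumbered splits, and 5357 genes in numbered and 4328 in unnumbered splits reached 1 FPKM on average. B-lymphoid sums, mitochondrial share, summed FPKM and the number of genes at 1 FPKM differed on average between the sets. So did depth, apart from unnumbered splits 247 and 252. These stood beside the differences of ALDOA, GAPDH, ENO1 and PKM below, and their part in those differences was not tested. In pooled material, fewer cells that express a gene and less RNA of it per cell cannot be told apart.

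Together the 10 genes held 1.92 ± 0.19% of all FPKM in the numbered and 2.03 ± 0.25% in the unnumbered splits (SD, n = 10 each), so their summed share was close in both sets. The share ran over 1.54 to 2.11% in the numbered and 1.54 to 2.32% in the unnumbered splits. Levels within the pathway spanned several orders of magnitude. Of the 200 values 8 were below 1 FPKM, and 7 of these belonged to HK2. Numbered splits 7 and 9 each had the lowest level of the set for 4 of the 10 genes.

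**Figure D1:**
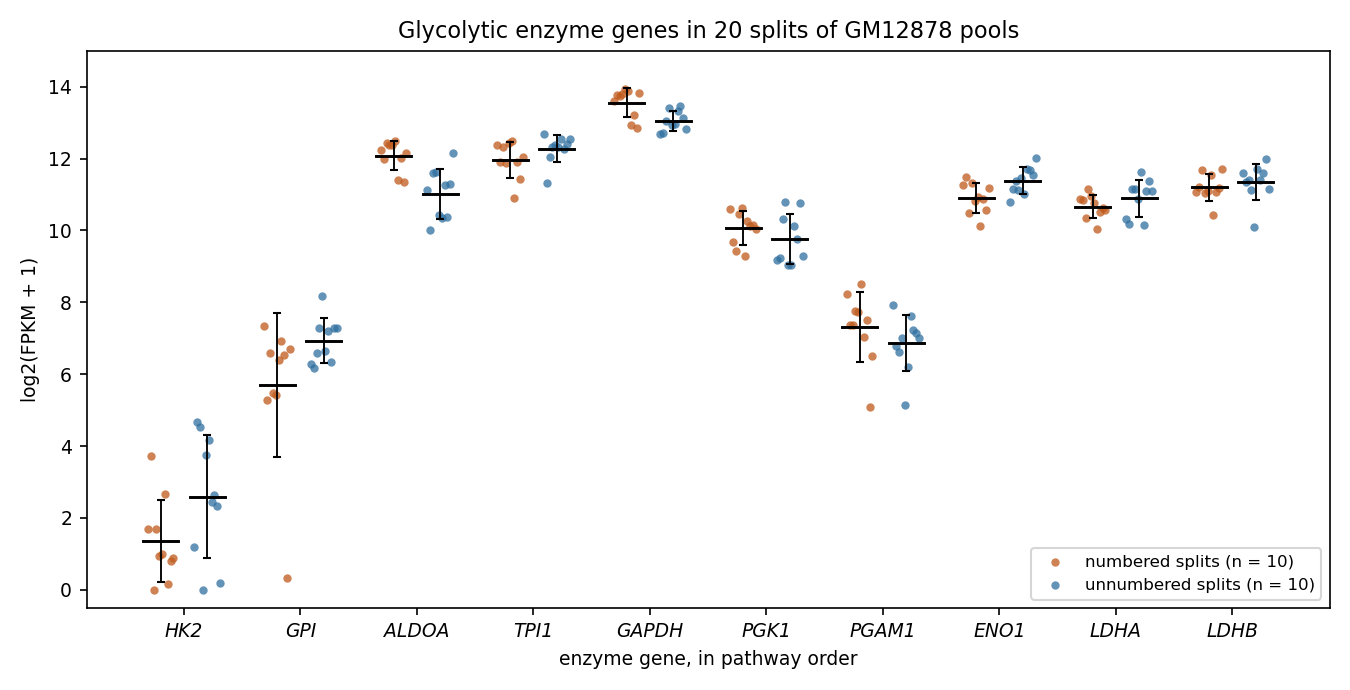
Level of each glycolytic enzyme gene, as log2(FPKM + 1), in 10 numbered (left, orange) and 10 unnumbered splits (right, blue); points are libraries, bars the mean and SD. GAPDH lay highest and HK2 lowest in both sets, and numbered split 9 had 0.245 FPKM of GPI.

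Between the sets, ALDOA and GAPDH were higher in the numbered splits, and no member passed in the other direction. In the limma fit over 10506 genes, adjusted by Benjamini-Hochberg and called below 0.05, these were 2 of 10 members, where 5.31% of all genes tested passed. Over all genes 413 were called higher in the numbered splits (3.93%) and 145 lower (1.38%). Differences were positive for 4 members and negative for 6, with a median of -0.19 on the log2(FPKM + 1) scale, beside a median of 0.35 over all genes tested. All 10 members passed the filter, a mean of 1 FPKM or more over the 20 libraries. No member had all its numbered values above or below all its unnumbered ones, as 1.65% and 0.352% of all genes tested had.

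The calls moved with the scaling. With size factors, which align the libraries on their median gene, the median of all genes was 0.23, 309 of 503 genes called were higher (4.79% of all tested), and ENO1 was the one member called, as lower in the numbered splits. With TPM scaling, which brings every library to the same sum, 351 of 567 called genes were higher (5.40% of all tested), and ALDOA passed as higher and TPI1 and ENO1 as lower. With the trend on transcript length removed, an alternative chosen after seeing the data, 230 of 472 called genes were higher (4.58% of all tested), and ENO1 passed as lower with no other member. Run a stands for numbered splits 5 to 8, whose laboratory experiment numbers lie apart from those of the other libraries, though no label calls it a batch. With a term for run a ALDOA was the one member called (3.67% of all genes), as it was by an exact rank-sum test (9.07%), while none passed with run a left out (4.26%) or without the filter on low genes (1.02%). No member changed sign under any of these.

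**Figure D2:**
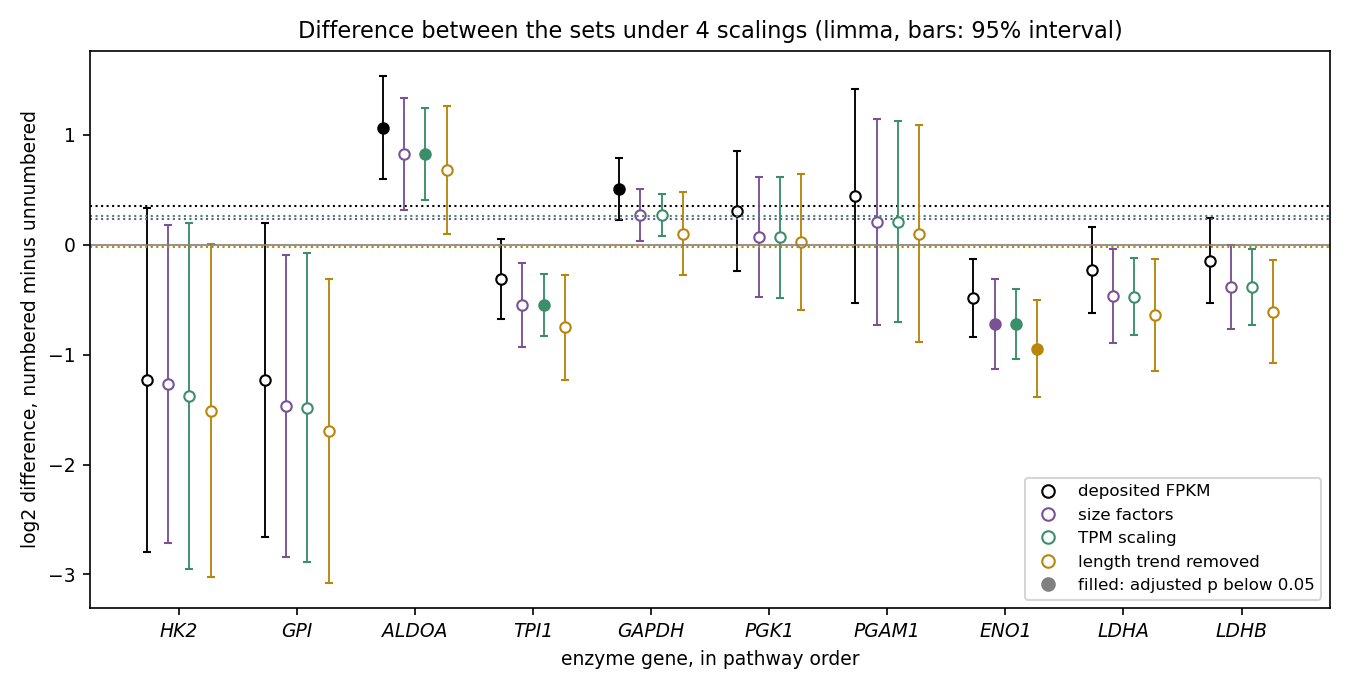
Log2 difference, numbered minus unnumbered, of each member under 4 scalings (limma on log2(FPKM + 1), bars the 95% interval, filled points adjusted p below 0.05, dotted lines the median of all genes tested under that scaling, n = 10 splits a set). ALDOA lay above its median and ENO1 below it under all 4, while GAPDH lay within 0.16 of the median with the deposited FPKM.

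HK2, the inducible hexokinase that commits glucose to the cell, was the least abundant member. In the numbered splits it ran over 0, 0.968 and 12.2 FPKM as lowest, median and highest and reached 1 FPKM in 5 of 10. In the unnumbered splits it had 0, 4.82 and 24.3 FPKM and reached 1 FPKM in 8 of 10. The ranges overlapped, although 4 unnumbered splits lay above the highest numbered value. Its difference of -1.23 did not pass (95% interval -2.80 to 0.33, limma adjusted p = 0.452). HK2 was listed at 0 in unnumbered split 247, the shallowest library, and in numbered split 3, at a depth of 14.6 M. The part of depth in these values was not tested.

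GPI, which turns glucose 6-phosphate into fructose 6-phosphate, had 0.245, 87.7 and 161 FPKM as lowest, median and highest in numbered and 71.0, 123 and 289 FPKM in unnumbered splits. Numbered split 9 alone stood near 0, and 3 more numbered splits lay below every unnumbered one. The difference was -1.23 (95% interval -2.66 to 0.20, limma adjusted p = 0.395). Without that split it was -0.63 (adjusted p = 0.466), so a single library made up much of the value.

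Aldolase, which cleaves fructose bisphosphate into the triose phosphates, differed between the sets. ALDOA, the form of most tissues, had 2607, 4721 and 5693 FPKM as lowest, median and highest in numbered splits and 1024, 2333 and 4529 FPKM in unnumbered splits. Every numbered split lay above the unnumbered median, 6 of them above the highest unnumbered value, while unnumbered splits 246, 247 and 253 lay within the numbered range, 253 the highest at 4529 FPKM. The means were 4486 ± 1105 FPKM in numbered and 2299 ± 1098 FPKM in unnumbered splits (SD, n = 10 each), a log2 difference of 1.07 (SE 0.23, limma adjusted p = 0.0036), which is 0.71 above the median of all genes. Leaving out any single library kept the call, with adjusted p up to 0.015. It was lost with size factors (0.83, adjusted p = 0.0522), with no filter on low genes, which takes the test to 49115 rows (adjusted p = 0.0511), with run a left out (1.07, adjusted p = 0.0584) and with the length trend removed (0.68, adjusted p = 0.218). With run a left out the median of all genes was 0.056, beside 0.35 in the main fit.

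ALDOC, the aldolase form best known from brain and not one of the 10 members, differed by more. It reached 1 FPKM in 9 of 10 numbered splits, with a median of 236 and a highest level of 498 FPKM, and stood at 0.247 FPKM in numbered split 9. In the unnumbered splits it was listed at 0 in 8 of 10 and reached 1 FPKM in split 250 alone, at 3.48 FPKM. With means of 220 FPKM in numbered and 0.351 FPKM in unnumbered splits, ALDOC met the filter only through the numbered set. The fitted difference of 6.81 on the log2(FPKM + 1) scale (SE 0.88, limma adjusted p = 6.46e-06) depends on the pseudocount. The call held in all 20 fits that leave out a library. Both describe the values that let the gene into the test and are no separate support. Even in the numbered splits ALDOA was the more abundant, at a median of 4721 FPKM beside 236 FPKM of ALDOC.

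TPI1 interconverts the triose phosphates, and its difference had the other sign from that of ALDOA. It had 1901, 4052 and 5716 FPKM as lowest, median and highest in numbered and 2576, 5209 and 6550 FPKM in unnumbered splits, and the ranges overlapped. The difference was -0.31 (95% interval -0.67 to 0.06, limma adjusted p = 0.411), and with TPM scaling it was -0.55 and passed (adjusted p = 0.016). The ratio of ALDOA to TPI1 within a library, which no scaling of libraries can move, was 0.908 to 1.44 in numbered and 0.257 to 0.753 in unnumbered splits. The 9 ratios examined were of successive genes in pathway order from HK2 to PKM, without phosphofructokinase, and of LDHA to LDHB. Among them ALDOA to TPI1 alone had no overlap. No share over other gene pairs was taken, and the ratio is given as a description since the levels of ALDOA and TPI1 were known. The 4 splits of numbered run a spanned 0.963 to 1.44 and the 6 of run b 0.908 to 1.403, while unnumbered runs c and d spanned 0.34 to 0.398 and 0.257 to 0.753.

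**Figure D3:**
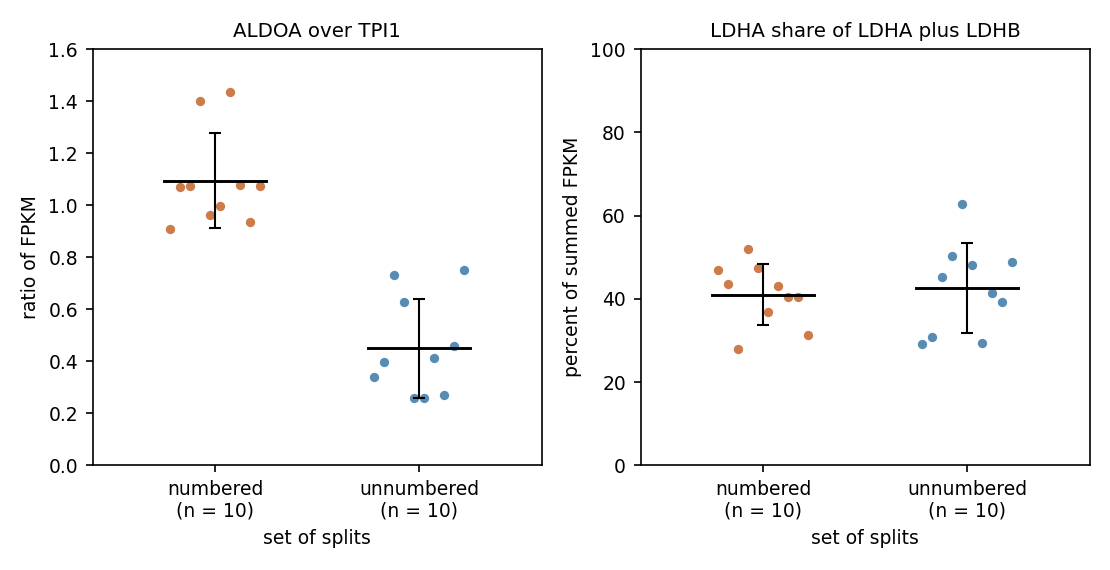
Left, ratio of ALDOA to TPI1 FPKM in each library; right, LDHA as a percent of LDHA plus LDHB (10 numbered splits on the left of each panel, 10 unnumbered on the right, bars the mean and SD). The ratio averaged 1.09 in numbered and 0.451 in unnumbered splits without overlap, while the LDHA share overlapped at 41.0% in numbered and 42.6% in unnumbered splits.

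GAPDH, the dehydrogenase that makes NADH and the most abundant member, had 7441, 13898 and 15711 FPKM as lowest, median and highest in numbered splits. In unnumbered splits it had 6557, 8218 and 11258 FPKM. Of the numbered splits 7 lay above every unnumbered one, and splits 7, 8 and 9, at 7758, 9452 and 7441 FPKM, lay within the unnumbered range. The means were 12458 ± 3097 FPKM in numbered and 8609 ± 1692 FPKM in unnumbered splits (SD, n = 10 each). The log2 difference was 0.51 (SE 0.14, limma adjusted p = 0.0245), which is 0.16 above the median of all genes.

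The call for GAPDH held in 8 of 20 fits that leave out a library. It was lost without any of numbered splits 1 to 6 and 10 or of unnumbered splits 232, 233, 248, 249 and 253, with adjusted p up to 0.0749. With size factors the difference was 0.27 (adjusted p = 0.220), with TPM scaling 0.27 (adjusted p = 0.105), and with the length trend removed 0.10 (adjusted p = 0.839). With run a left out it was 0.56 (adjusted p = 0.0629), from fewer splits. The median of all genes was 0.056 in that fit, beside 0.35 in the main fit, so the distance from it depends on run a.

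PGK1, the first kinase of the pathway to return ATP, had 627, 1126 and 1564 FPKM as lowest, median and highest in numbered and 521, 749 and 1762 FPKM in unnumbered splits. The ranges overlapped, with 5 unnumbered splits below the lowest numbered one and 2 above the highest. Its difference of 0.31 did not pass (95% interval -0.24 to 0.85, limma adjusted p = 0.600).

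PGAM1, the mutase that shifts the phosphate of 3-phosphoglycerate, had 33.3, 173 and 361 FPKM as lowest, median and highest in numbered and 34.6, 128 and 241 FPKM in unnumbered splits. The low ends were numbered split 9 and unnumbered split 248, and the ranges overlapped almost entirely (difference 0.45, 95% interval -0.53 to 1.42, limma adjusted p = 0.614). PGAM4, a copy of PGAM1 on chromosome X, was lowest and highest in the same splits of each set as PGAM1. It averaged 26.4 FPKM in numbered and 15.8 FPKM in unnumbered splits, which is 14.2% of PGAM1 in numbered and 12.3% in unnumbered splits, and reads of the pair cannot be separated with certainty.

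ENO1, the enolase of most tissues, pointed the other way from ALDOA. It had 1115, 1898 and 2863 FPKM as lowest, median and highest in numbered and 1758, 2747 and 4121 FPKM in unnumbered splits. Only 1 numbered split lay above the unnumbered median, and 3 lay below every unnumbered one. The means were 1985 ± 551 FPKM in numbered and 2756 ± 710 FPKM in unnumbered splits (SD, n = 10 each), and the difference of -0.48 had an unadjusted p of 0.01 and a limma adjusted p of 0.121. It passed with size factors (-0.72, adjusted p = 0.0326), with TPM scaling (-0.72, adjusted p = 0.00346) and with the length trend removed (-0.95, adjusted p = 0.00793). The length used for ENO1 was 637 bases, a median over its annotated transcripts, short ones included. How far this choice of length moved the last value was not tested.

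PKM, the pyruvate kinase gene of most tissues and the last step before lactate dehydrogenase, is not one of the 10 members but passed beside them. It had 407, 566 and 1391 FPKM as lowest, median and highest in numbered and 681, 1157 and 1804 FPKM in unnumbered splits. Numbered split 9 held the highest numbered value, and 6 numbered splits lay below every unnumbered one. The means were 671 ± 312 FPKM in numbered and 1201 ± 348 FPKM in unnumbered splits (SD, n = 10 each), a difference of -0.90 (SE 0.24, limma adjusted p = 0.0267). It did not pass with run a left out (-0.82, adjusted p = 0.113), with a term for run a (adjusted p = 0.135) or without the filter on low genes (adjusted p = 0.0786).

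**Figure D4:**
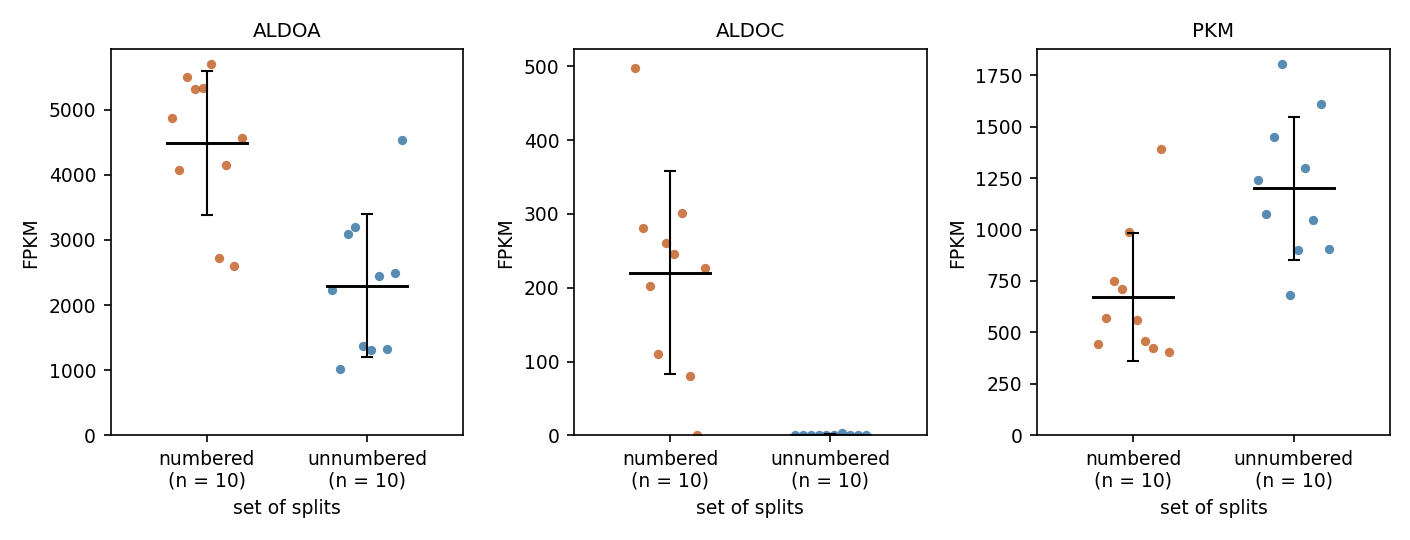
FPKM of ALDOA, ALDOC and PKM in 10 numbered (left of each panel) and 10 unnumbered splits (right), with the mean and SD. Both aldolase genes were higher in the numbered splits, where ALDOC had a median of 236 FPKM, and PKM averaged 671 FPKM in numbered and 1201 FPKM in unnumbered splits.

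The lactate dehydrogenase subunits were present at like levels. LDHA, the subunit that prevails in muscle, had 1050, 1655 and 2273 FPKM as lowest, median and highest in numbered and 1139, 2192 and 3131 FPKM in unnumbered splits. The ranges overlapped, and the difference was -0.23 (95% interval -0.62 to 0.16, limma adjusted p = 0.578). LDHB, the subunit that prevails in heart, had 1382, 2260 and 3340 FPKM in numbered and 1100, 2724 and 4100 FPKM in unnumbered splits, again with overlap (difference -0.15, 95% interval -0.53 to 0.24, adjusted p = 0.690). LDHA made up 41.0 ± 7.34% of the pair in numbered and 42.6 ± 10.8% in unnumbered splits (SD, n = 10 each). It exceeded LDHB in numbered split 4, at 51.9%, and in 2 unnumbered splits, of which split 248 had 62.9%.

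Of a wider list of 42 genes of glucose uptake, glycolysis, the pentose phosphate pathway and pyruvate metabolism, 40 were in the files and 27 could be tested. Of these, ALDOC passed as higher in the numbered splits and PKM as lower, which is 2 of 27, where 5.31% of all genes passed. ALDOC met the filter only through the numbered splits. The median difference of the 27 was 0.81, beside 0.35 over all genes. In 20 of the 27 at least 3 splits of a set lay below 1 FPKM, and 10 genes of the list reached 1 FPKM in no library. The phosphofructokinase genes, whose enzyme controls entry into glycolysis, were among the scattered ones. PFKP reached 1 FPKM in 7 numbered and 3 unnumbered splits, PFKM in 4 numbered and 4 unnumbered and PFKL in 5 numbered and 2 unnumbered splits.

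Outside glycolysis proper, PDHA1, a subunit of pyruvate dehydrogenase, was the most abundant gene of the wider list after PKM. It averaged 333 ± 222 FPKM in numbered and 842 ± 580 FPKM in unnumbered splits (SD, n = 10 each, limma adjusted p = 0.515). Of the pentose phosphate genes, TALDO1 had medians of 149 FPKM in numbered and 283 FPKM in unnumbered splits (adjusted p = 0.833) and PGD of 162 FPKM in numbered and 152 FPKM in unnumbered splits (adjusted p = 0.786). TKT, the transketolase gene, reached 1 FPKM in all 10 numbered splits with a median of 162 FPKM and in 5 unnumbered splits with a median of 31.3 FPKM, and did not pass (difference 3.42, SE 1.14, limma adjusted p = 0.0863).

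The order of the members by mean FPKM differed between the sets in its middle. In the numbered splits it ran GAPDH, ALDOA, TPI1, LDHB, ENO1, LDHA, PGK1, PGAM1, GPI and HK2. In the unnumbered splits it ran GAPDH, TPI1, ENO1, LDHB, ALDOA, LDHA, PGK1, GPI, PGAM1 and HK2, with ALDOA lower in the order. Neighbours were compared within libraries by exact sign-flip permutation tests, adjusted over all 18 pairs, and 12 pairs passed. In the numbered splits ALDOA and TPI1 (exact permutation adjusted p = 0.206) and LDHB and ENO1 (adjusted p = 0.0974) did not pass. In the unnumbered splits the run from ENO1 through LDHB and ALDOA to LDHA held no pair that passed, nor did GPI and PGAM1.

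The spread between splits is given beside the confidence interval the authors deposited for each value. That interval is computed within a library, so it leaves out differences between splits, and it is shown only for the scale of the error it covers. For GAPDH the coefficient of variation (CV, SD over mean) was 24.9% in numbered and 19.7% in unnumbered splits, while the deposited confidence interval reached 0.703% of the level to either side in the median numbered split and 0.574% in the median unnumbered split. In split 247, the shallowest library, it reached 6.75% for GAPDH and 62.3% for PGAM1, where the CV of PGAM1 between unnumbered splits was 45.4%. CVs of the 6 most abundant members ran from LDHA at 21.5% to TPI1 at 29.7% in the numbered splits and from GAPDH at 19.7% to ALDOA at 47.8% in the unnumbered splits.

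Set beside genes of like level (within a factor of 2 of the member's mean), 5 of 10 members had a CV under the median of those genes in each set. GPI, PGAM1 and HK2 were under it in both. GPI had a CV of 60.6% in numbered and 49.3% in unnumbered splits, where genes of its level had medians of 102% in numbered and 97.7% in unnumbered splits. ALDOA lay near that median in the numbered splits, at 24.6% beside 21.7%, and above it in the unnumbered splits, at 47.8% beside 26.3%. Dividing by the library's summed FPKM narrowed the CV of GAPDH to 13.7% in the numbered splits and left it at 19.1% in the unnumbered splits.

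**Figure D5:**
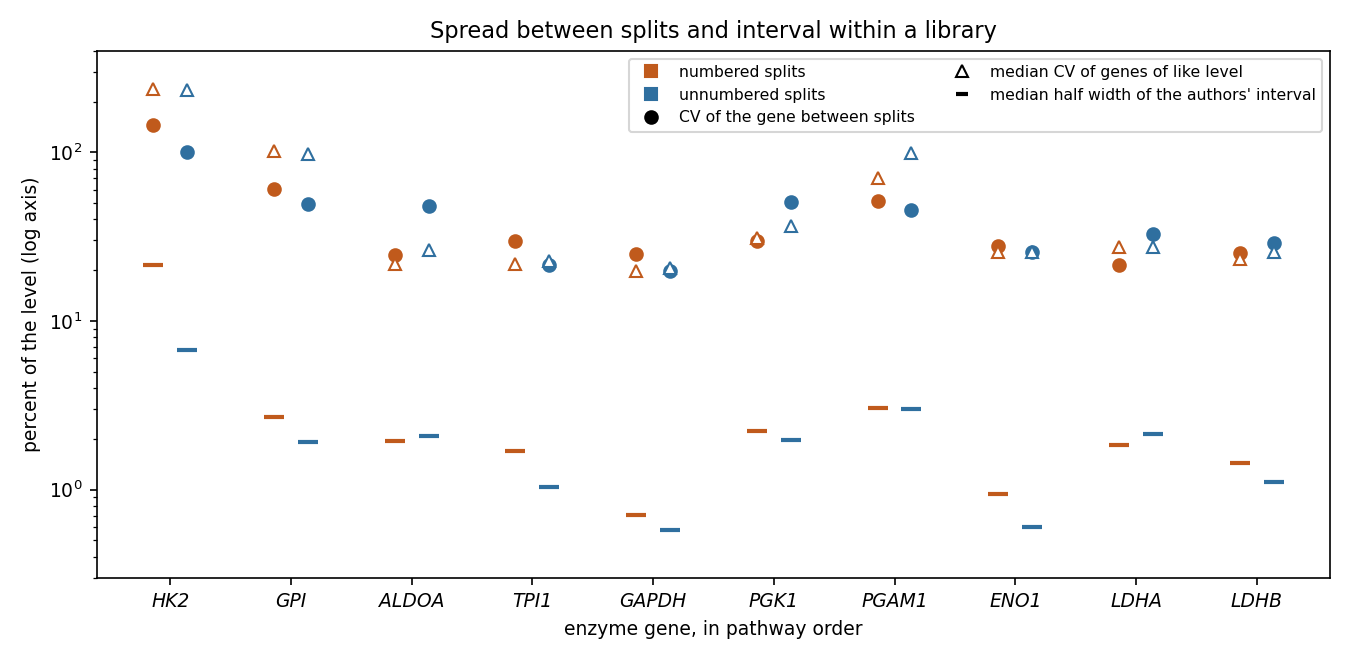
CV of each member between splits (circles), median CV of genes of like level (triangles) and the reach of the authors' interval to either side, median over splits (dashes), in percent on a log axis, for numbered (left, orange) and unnumbered splits (right, blue), n = 10 each. The median interval of GAPDH reached 0.703% in the numbered splits, where its CV was 24.9%. Single libraries reached further, such as 62.3% for PGAM1 in unnumbered split 247.

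GAPDH and PGK1 were set beside 13 other genes in common use as references. Of these 15, 9 reached 1 FPKM in all 20 libraries, and 6 of 15 passed the limma test between the sets, all higher in the numbered splits, where 3.93% of all genes did. GAPDH had the lowest CV of the 15 over all 20 libraries, at 29.7%, but ranked 4 in the numbered and 3 in the unnumbered splits, where RPL13A at 16.2% and RPLP0 at 15.1% were lowest. PGK1 ranked 7 at 29.8% in the numbered and 8 at 51.0% in the unnumbered splits. ACTB did not pass, at 18657 FPKM in numbered and 23413 FPKM in unnumbered splits (limma adjusted p = 0.533), and TBP reached 1 FPKM in 6 libraries only.

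Genes were also ranked by how closely their centred log2(FPKM + 1) profile over the 20 libraries followed that of GAPDH, by the mean absolute difference. The nearest non-members were RPL19 at 0.16, RP11-889L3.1, hsa-mir-3654, RP11-511B23.2 and STEAP1B, the last at 0.21, where the median over 10505 genes was 1.47. The nearest member was TPI1 at rank 250, followed by ALDOA at 260 and LDHA at 293, and HK2 stood at 5208. The measure favours genes with little spread of any kind, so it is a description of these libraries.

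Reads of several members can be shared with near-identical copies. Of 90 rows named as pseudogenes of the members, 63 were listed at 0 in all libraries and 7 averaged 1 FPKM or more. TPI1P1 (chromosome 1, 77165474 to 77166223 in the files' coordinates) averaged 377 FPKM in numbered and 492 FPKM in unnumbered splits, which is 8.96% of TPI1 in numbered and 9.63% in unnumbered splits. LDHAP4 averaged 50.3 FPKM in numbered and 46.7 FPKM in unnumbered splits, GAPDHP1 6.45 FPKM in numbered and 5.29 FPKM in unnumbered splits, and GAPDHP62 reached 1 FPKM in 2 numbered and 1 unnumbered splits. The sources used here do not give how reads were divided between the copies, and how far this touches the levels of the members was not measured.

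The members called lie at chromosome 16, 30064411 to 30081778 (ALDOA, ENSG00000149925.12) and chromosome 12, 6643093 to 6647537 (GAPDH, ENSG00000111640.9), in the files' coordinates, and no other row overlaps either. ENO1 (ENSG00000074800.8) lies at chromosome 1, 8921061 to 8939308, where the rows ENO1-IT1 and ENO1-AS1 overlap it, and its reads and theirs cannot be told apart without strand. TPI1 overlaps SPSB2 and PGAM1 overlaps EXOSC1, and LDHA and LDHB each overlap 1 non-coding row. All values are over whole gene rows, which join exons and transcripts.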

How the data were processed

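The members and gene lists were chosen with earlier results of these data known. FPKM values, their confidence bounds and a status for each gene were deposited by the authors, who used, per the submitters' processing notes, TopHat 1.4.1 with Cufflinks 2.0.2. No source used here gives the genome build of the files, and their starts were moved by 1 to count from 1. Rows marked LOWDATA throughout (5797) or FAIL in any library (128) were left out, which left 49115 of 55040. Differences were fitted with limma 3.58.1 (trended variance, two-sided) on log2(FPKM + 1) over the 10506 genes with a mean of 1 FPKM or more, with Benjamini-Hochberg adjustment, so fold changes of low genes are understated. Fits were tested on simulated data. Neighbours in level were compared by exact two-sided sign-flip permutation tests over the 10 splits of a set. Named were all members, the wider-list genes past the threshold and the 6 most abundant of them, the 4 highest pseudogene rows and the 5 genes most like GAPDH. PFKM, PFKP, PFKL, PGAM4 and the reference genes RPL13A, RPLP0, ACTB and TBP were named after their values were seen. Alternatives changed scaling, pseudocount, filter, test, runs and libraries. Runs are sequences of laboratory experiment numbers (a, numbered splits 5 to 8; b, the other 6; c, 232 and 233; d, the other 8). Transcript lengths were the median over a gene's protein-coding transcripts in GENCODE 29, or over all its transcripts where none was coding. Promoters came from RefSeq (GRCh38.p14). Python 3.11.15 and R 4.3.3 were used. FPKM gives no counts per gene, so no count model was run.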

Additional observations from a re-analysis of the deposited data

Results flagged for a closer look

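In 4 of 24 groups of 10 values examined, the lowest library stood apart from the others of its set by more than Dixon's 95% criterion, which chance exceeds in about 1 in 20 groups. GPI in numbered split 9 was at 0.245 FPKM. TPI1 in unnumbered split 233 was at 2576 FPKM. LDHB was at 1382 FPKM in numbered split 7 and at 1100 FPKM in unnumbered split 248.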

How the results depend on the processing

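No member changed direction under any alternative that could be fitted. Against 2 members called, size factors, the covariate for run a, the exact rank-sum test and the added removal of the length trend each called 1, and the fit without a filter and the fit without run a each called 0. Those 2 fits had 2110 of 49115 rows and 1517 of 10506 genes at an unadjusted limma p under 0.05, against 1714 of 10506 in the main fit. The rank-sum test called 953 genes, against 558. Leaving out 1 library gave 524 to 614 genes and 1 to 2 members. Without unnumbered split 247, 2 members passed among 549 of 10506 genes called. Without splits 9, 247 and 253, 2 members passed among 588 of 10506. Pseudocounts of 0.1 and 10 also gave 2 members each, among 593 and 554 of 10506. With a filter at a mean of 10 FPKM, 2 members passed among 651 of 5805 genes called, a larger share of all genes, and HK2 could not be fitted. With run a left out, 5 of 18 neighbour pairs passed, against 12, from 6 numbered splits. In the main test 5 of the 12 were pairs of the unnumbered splits, which leaving out run a does not change. With 6 splits the exact test cannot reach small p, so numbered pairs could hardly pass, and no conclusion on the order is drawn. CVs moved by more than their jackknife error in 9 of 80 alternatives. The LDHA share stayed within 1 SD. Causes of these shifts were not tested. No paired analysis was possible because no label links a numbered split to an unnumbered one. Runs a and b held only numbered splits and runs c and d only unnumbered ones, so set and run cannot be told apart. Unnumbered split 247 had the lowest depth, and the part of depth in its low values was not tested.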
